A study of Mus musculus with 9 samples.

Results

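Collagens, laminins and integrins were examined as 1 gene module in caudal epiblast-like cells (CEpiLCs) of the mouse. The members were every gene of the deposited table whose symbol is that of a numbered collagen chain (such as Col4a1), a laminin alpha, beta or gamma chain (such as Lamc1), an integrin alpha chain (such as Itga6) or an integrin beta chain (such as Itgb1). This gave 81 of 24736 genes, namely 44 collagens, 11 laminins, 18 integrin alpha chains and 8 integrin beta chains. Of these, 79 had a count in at least 1 library, and 5 never passed 3 counts in any library (Col10a1, Col28a1, Itgad, Itgax and Itgb6). The choice used symbols only, not measured values.

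Laminins are secreted as trimers of an alpha, a beta and a gamma chain, and with type IV collagen they form the sheets of the basement membrane on which the epiblast rests. Other collagens have other roles, with types I and V forming fibrils in connective tissue and type XVIII carrying heparan sulphate in basement membranes. Integrins are pairs of an alpha and a beta chain that tie the cell to this matrix. Cells that leave the epiblast through the primitive streak cross the basement membrane, and T and the Cdx factors act in that region of the embryo.

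RNA was sequenced from mouse embryonic stem cells differentiated in N2B27 medium containing bFGF (10 ng/ml) and the Porcupine inhibitor LGK974 at 5 uM, which blocks WNT secretion, with the GSK3 inhibitor CHIR99021 added after 2 days until collection at 72 h. The 3 genotypes were WT, the triple mutant Cdx1/2/4-/- (CdxKO) and T/Bra-/- (T/BraKO), with 3 biological replicates each, all treated alike, and all lines came from the HM1 TetON stem cell line that served as WT. No second clone of a genotype was named, so an effect of the mutation and a difference between lines cannot be told apart. The stem cells were kept on mouse embryonic fibroblasts, which were depleted by plating before differentiation and which themselves make collagens.

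Libraries held between 25124344 and 34705361 expected counts, and the members together took between 0.227% and 0.315% of them. Of the targeted genes, T transcripts fell in T/BraKO relative to WT (log2 fold change -2.42, DESeq2 adjusted p 7.83e-10) but its transcript was still present at 61.0 to 98.5 TPM. Cdx1 and Cdx2 transcripts were lower but present in CdxKO, and Cdx4 was at 0.08 TPM or below in its 3 libraries. The 11 caudal epiblast markers summed to 1197 to 1440 TPM in WT, 793 to 1307 TPM in CdxKO and 927 to 1306 TPM in T/BraKO. By DESeq2, 5 of the 11 were lower in CdxKO than in WT (Cdx1, Cdx2, Cdx4, Wnt3a and Wnt8a), where 0.358% of all genes were. In T/BraKO, T, Fgf8 and Wnt3a were lower than in WT and Sp5 was higher, where 0.937% of all genes were lower and 0.148% higher. Libraries with the same replicate number deviated from their group means together. Each comparison is therefore given with genotype as the only term, which is the main test, and beside it after adding the replicate number to the model (the block).

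In all 3 genotypes the members with the highest levels were the parts of a basement membrane and its receptors. Levels are compared between genes in TPM (a measure scaled for transcript length and library total). Averaged over all 9 libraries, 17 members reached 10 TPM (6 collagens, 4 laminins, 5 integrin alpha and 2 integrin beta chains), and 32 stayed under 1 TPM. Itgb1, the beta chain that most integrins share, was the highest at 172.89 to 263.74 TPM. It was followed by Lamb1 at 76.06 to 120.56 TPM, Col18a1 at 76.74 to 96.25 TPM, Itga6 at 57.29 to 87.83 TPM, Lamc1 at 61.63 to 80.85 TPM and Lama5 at 47.70 to 74.37 TPM. Itgb1 did not overlap with any other member. From Lamb1 to Lama5, each member overlapped with its neighbour in this order, and every Lama5 library was below every Lamb1 and Col18a1 library.

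**Figure D1:**
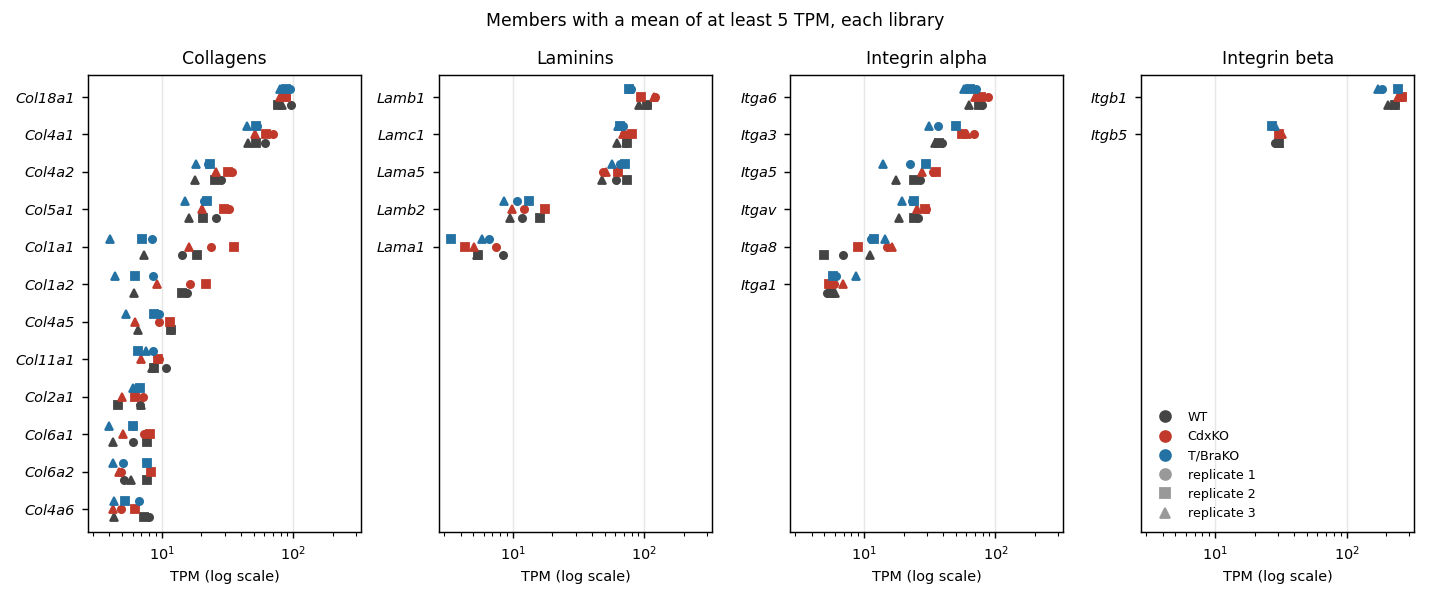
Level of each member with a mean of at least 5 TPM over all 9 libraries, in TPM on a log axis, with 1 point per library. Colours give the genotype and shapes the replicate number. Itgb1 lies highest at 172.89 to 263.74 TPM, and the points of Col1a1 spread over the widest range among the collagens shown, from 4.05 to 35.48 TPM.

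Within each kind of laminin chain 1 gene supplied most of the transcripts. Lama5 held between 82.2% and 91.5% of the summed TPM of the 5 alpha chains, with Lama1, the other alpha chain of early embryonic basement membranes, at 4.33% to 12.4%. Lamb1 held 81.3% to 91.4% of the beta chains and Lamc1 held 90.9% to 97.1% of the gamma chains. Lama4 was at 1.96 to 2.82 TPM, Lama3 at 0.59 to 1.19 TPM and Lamc3 at 0.11 to 0.61 TPM, and Lama2 supplied 0.102% to 0.277% of the alpha chains. The transcripts thus held the 3 chains of a single trimer, laminin alpha 5, beta 1 and gamma 1, at levels within the same order of magnitude.

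Among integrin alpha chains, the laminin receptor chains Itga6 and Itga3 held 32.4% to 41.3% and 20.2% to 28.1% of the summed TPM. Itga5, the fibronectin receptor chain, ranged from 14 to 35.22 TPM and Itgav, a chain that binds RGD-containing ligands with several beta partners, from 18.38 to 29.71 TPM. Itga8, which pairs with Itgb1 and binds nephronectin, ranged from 4.94 to 16.38 TPM. The collagen receptor chains were lower, with Itga1 at 5.22 to 8.76 TPM and Itga2, Itga10 and Itga11 all below the level of Itga1 in every library. Of the leukocyte chains, Itgad and Itgax had no count in any library. Itgb1 made up 83.7% to 87.3% of the beta chains and Itgb5, a partner of Itgav, 9.61% to 13.7%.

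The subfamilies were then compared across genotypes by their summed TPM. The 11 fibrillar collagens summed to 86.37, 77.01 and 55.23 TPM in WT replicates 1, 2 and 3, to 100.49, 111.46 and 67.09 TPM in CdxKO and to 63.18, 58.14 and 46.51 TPM in T/BraKO, so the CdxKO libraries all lay above the T/BraKO libraries. The 6 collagen IV chains summed to 108.97, 96.32 and 74.40 TPM in WT, 118.66, 111.61 and 87.07 TPM in CdxKO and 91.44, 89.11 and 72.22 TPM in T/BraKO, and all groups overlapped. The laminin beta chains summed to 117.29, 124.40 and 102.26 TPM in WT, 134.55, 116.11 and 130.05 TPM in CdxKO and 91.26, 92.23 and 87.19 TPM in T/BraKO, where every T/BraKO library was below every other library. The RGD-binding integrin alpha chains were above the other genotypes in every CdxKO library, at 79.58, 75.48 and 70.34 TPM, against 60.05, 55.21 and 48.32 TPM in WT and 57.75, 66.66 and 48.90 TPM in T/BraKO. The laminin-binding alpha chains were also above the others in every CdxKO library, at 158.89, 134.04 and 130.80 TPM in CdxKO, 119.33, 113.21 and 98.40 TPM in WT and 109.18, 114.41 and 89.58 TPM in T/BraKO. The integrin beta chains were at 286.75 to 306.06 TPM in CdxKO, 244.34 to 276.01 TPM in WT and 206.55 to 280.47 TPM in T/BraKO. All groups overlapped for the laminin alpha chains, the laminin gamma chains and the multiplexin collagens. The mean of the laminin alpha chains was lowest in CdxKO, at 63.5 TPM, against 70.6 TPM in WT and 73.1 TPM in T/BraKO. Sums weigh the highest member most, and no test was run on them.

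**Figure D2:**
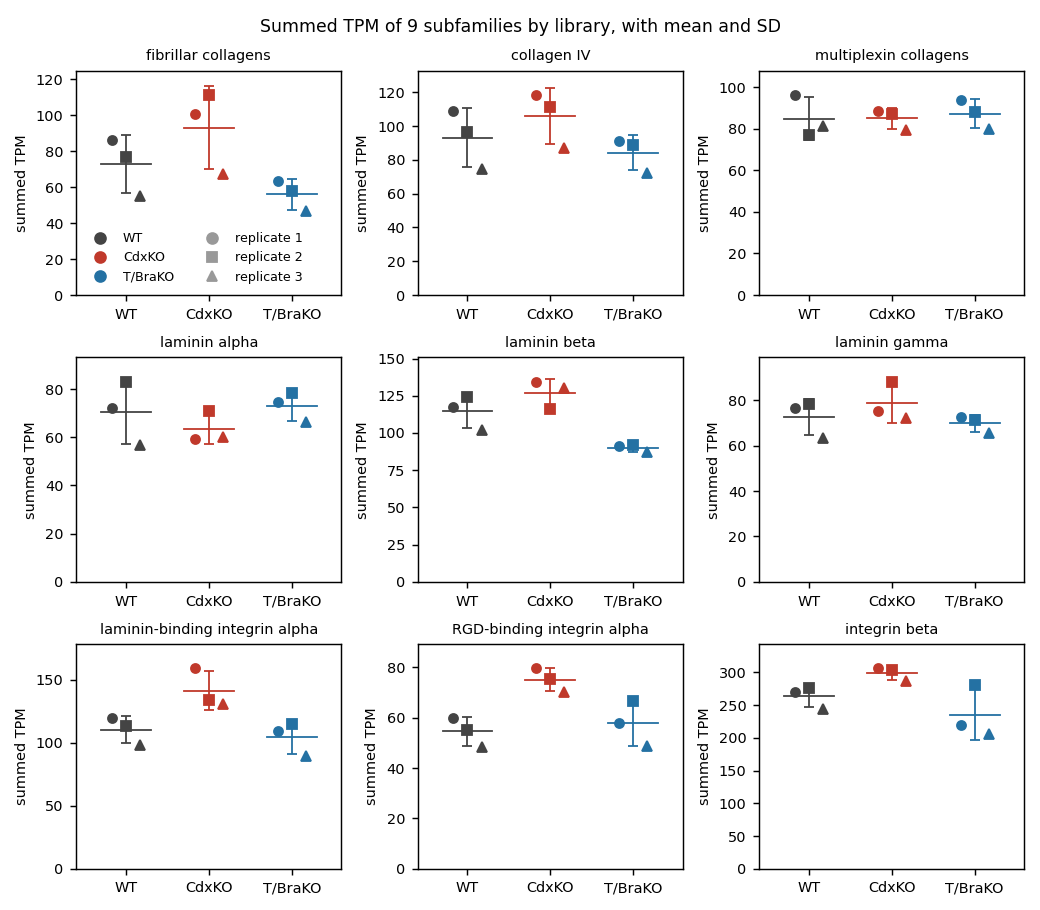
Summed TPM of 9 subfamilies in each library (points, shaped by replicate number), with the mean (line) and SD (bar, n = 3) of each genotype. Laminin beta chains are lowest in the 3 T/BraKO libraries (87.2 to 92.2 TPM), and both classes of integrin alpha chain are highest in the 3 CdxKO libraries.

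Between CdxKO and WT, 1 of 77 members tested passed an adjusted p of 0.05 (DESeq2 Wald test, Benjamini-Hochberg over all genes), and it was higher in CdxKO. Over all genes 0.693% were called, 0.335% as higher and 0.358% as lower, and at an unadjusted p under 0.05 the members numbered 7 higher and 0 lower. With the replicate block 14 of 65 tested were higher and 0 lower, where 3.4% of all genes were higher and 1.91% lower. edgeR called 0 members in either direction (0.0344% of all genes higher and 0.0756% lower), and with the block 13 higher and 0 lower (2.82% and 1.73% of all genes). The median log2 fold change of the members was 0.11, against 0.00 over all genes. All 3 CdxKO libraries lay above all 3 WT libraries, in normalised counts, for 5 of the 68 members whose mean normalised count reached 10, and 5.4% of all such genes did so. No member lay below without overlap, where 4.5% of such genes did.

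Between T/BraKO and WT, 1 of 79 members tested was called, as lower, where 1.08% of all genes were called, 0.937% as lower and 0.148% as higher. At an unadjusted p under 0.05, 7 members were lower and 1 was higher. With the block 7 were lower and 1 was higher of 55 tested, where 4.85% and 4.83% of all genes were. edgeR called 0 members in either direction (0.337% of all genes lower and 0.0481% higher), and with the block 9 lower and 1 higher (5.2% and 4.3% of all genes). The members' median log2 fold change was -0.09, against 0.00 over all genes. The libraries did not overlap for 7 members as lower and 2 as higher, of 68, against 5.88% and 4.42% of all such genes. Both of these comparisons use the same 3 WT libraries.

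Directly between the mutants, 7 of 76 members tested were higher in CdxKO than in T/BraKO and 0 were lower, where 3.48% of all genes were called, 2.52% as higher and 0.962% as lower. At an unadjusted p under 0.05 the number lower was also 0, and edgeR called 1 higher and 0 lower (1.24% and 0.385% of all genes). With the block 21 of 72 tested were higher and 1 was lower, where 7.75% and 6.9% of all genes were, and edgeR with the block called 26 and 1 (10.2% and 8.52% of all genes). The members' median log2 fold change was 0.23 and that of all genes -0.01, and 15 of 68 members were higher in CdxKO without overlap, where 8.11% of all such genes were, and 0 were lower, where 7.27% were. The 7 members were Col1a1, Col1a2, Col8a1, Col12a1, Lamb1, Itga3 and Itgb3.

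**Figure D3:**
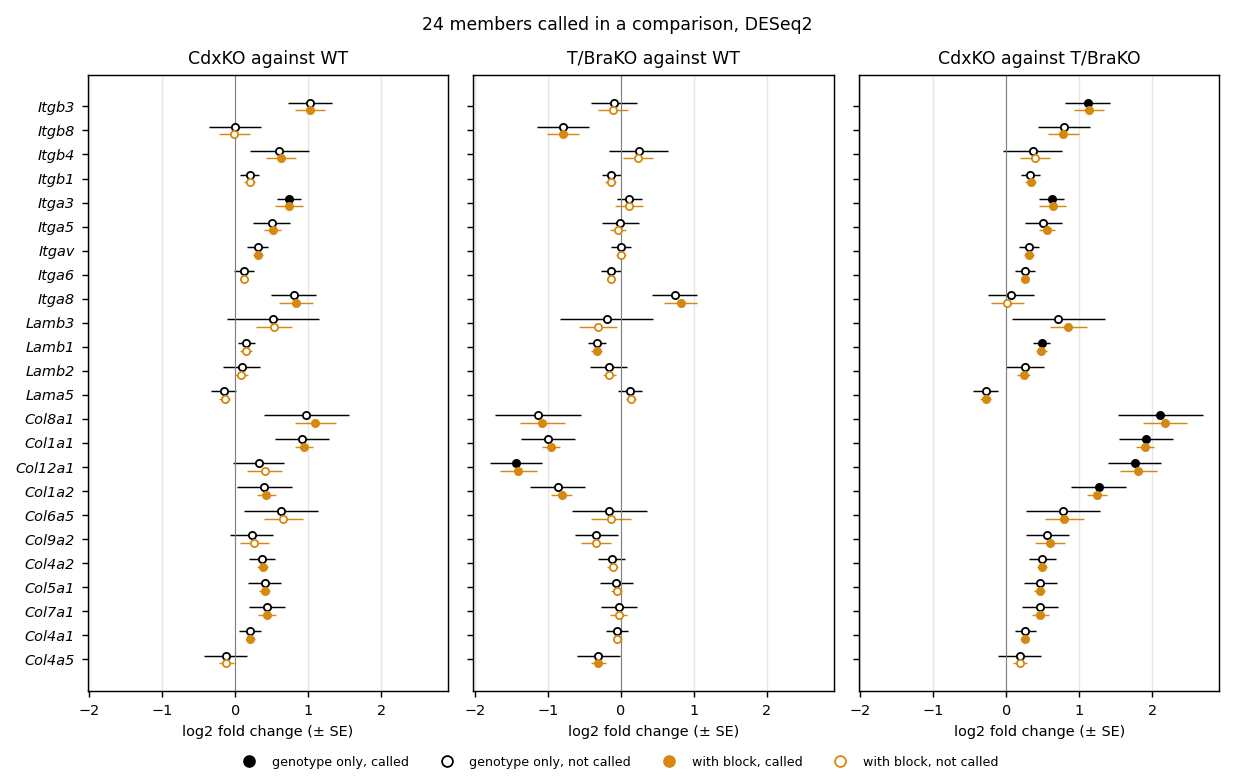
Log2 fold changes (points) and their SE (bars) for 24 members called in any comparison, from DESeq2 with genotype only (black) and with the block (orange). Filled points passed an adjusted p of 0.05. The points of the direct comparison lie above 0 for every member shown but Lama5, and the SE there is narrower with the block for every member shown but Itga3.

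The calls made with the block also differed in how far they rested on single libraries. Of 44 such calls over the 3 comparisons, 20 were kept in all 9 blocked fits that left out 1 library. Against WT these were Col1a1, Col4a2, Col5a1, Itgav and Itgb3 as higher in CdxKO, and Col1a1, Col1a2 and Col12a1 as lower in T/BraKO. Of the other calls in CdxKO, Itga8 was kept in 6 of 9, Col8a1 in 5, Col4a1, Col7a1, Itga3 and Itga5 in 4, Col1a2 in 3 and Itgb4 in 0. In T/BraKO, Itga8 was kept in 7, Lamb1 in 6, Col8a1 and Itgb8 in 5 and Col4a5 in 3. Between the mutants, Col7a1, Itga5 and Itgb8 were kept in 7, Lama5 in 6, Col9a2, Itga3 and Lamb3 in 5, Col6a5 in 3 and Lamb2 in 0.

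For 5 members called in a comparison, without or with the block, the 250 bases before a start of the gene are shown. T and the CDX proteins are DNA-binding factors. RefSeq windows of the GRCm38.p6 assembly held 64 starts of 58 of the 81 members, out of 32851 windows in all. Col1a1, Col12a1 and Itgb3, which were also called between the mutants, had no window and could not be searched. Each was searched on both strands for the T-box site GGTGTGA, for the Cdx sites TTTATTG and TTTATGG, and for the TCF sites CTTTGAT and CTTTGAA, through which WNT signalling acts. In the sequences, written from 5′ to 3′ on the strand of the gene and ending at the base before its RefSeq start, capitals mark such a match. Gene spans in this text are from GENCODE, whose starts can differ. The Col1a2 window lies within its GENCODE span, and those of Lamb1 and Itga3 overlap theirs. Only Col8a1 and Itga8 among the 5 shown held one, in both cases the Cdx site TTTATGG on the other strand. The windows of Itgb8 and Lama5, called with the block and not shown, held no match. For Itga3 the window is that of the upstream of 2 starts.
Col8a1, chr16:57754738-57754987, minus strand: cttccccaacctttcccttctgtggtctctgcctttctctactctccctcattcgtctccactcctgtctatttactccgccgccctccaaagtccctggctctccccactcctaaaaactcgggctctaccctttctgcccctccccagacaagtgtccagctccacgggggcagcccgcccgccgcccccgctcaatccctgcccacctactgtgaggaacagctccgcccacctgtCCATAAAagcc
Itga8, chr2:12301945-12302194, minus strand: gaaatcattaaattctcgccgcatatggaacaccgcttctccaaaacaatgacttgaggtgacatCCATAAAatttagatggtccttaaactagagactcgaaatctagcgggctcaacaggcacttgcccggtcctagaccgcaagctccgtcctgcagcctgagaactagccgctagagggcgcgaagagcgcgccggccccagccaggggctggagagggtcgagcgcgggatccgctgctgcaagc
Col1a2, chr6:4505368-4505617, plus strand: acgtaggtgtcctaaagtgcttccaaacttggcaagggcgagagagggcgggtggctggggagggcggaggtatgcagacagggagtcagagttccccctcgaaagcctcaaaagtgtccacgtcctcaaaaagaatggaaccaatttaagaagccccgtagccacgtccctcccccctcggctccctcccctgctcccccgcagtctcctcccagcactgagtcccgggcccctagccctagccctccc
Lamb1, chr12:31265043-31265292, plus strand: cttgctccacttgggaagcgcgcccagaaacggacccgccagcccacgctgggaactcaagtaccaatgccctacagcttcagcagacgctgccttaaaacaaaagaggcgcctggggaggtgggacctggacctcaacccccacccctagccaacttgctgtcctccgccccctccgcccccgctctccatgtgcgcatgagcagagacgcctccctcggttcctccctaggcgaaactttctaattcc
Itga3, chr11:95076715-95076964, minus strand: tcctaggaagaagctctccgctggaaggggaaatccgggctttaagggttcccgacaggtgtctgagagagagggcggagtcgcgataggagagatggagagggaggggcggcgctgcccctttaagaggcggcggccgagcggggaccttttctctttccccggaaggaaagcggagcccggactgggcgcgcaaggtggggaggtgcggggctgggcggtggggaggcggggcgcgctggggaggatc

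The match lay 11 to 5 bases before the start of Col8a1 and 185 to 179 bases before that of Itga8. Over all members a Cdx site was found in 4 of 64 windows (6.25%), those of Col4a6, Col6a4, Col8a1 and Itga8, and in 6.51% of all windows. The T-box site was found in 1 of 64 (1.56%), at Itga4, and in 3.33% of all windows, and a TCF site in 7 of 64 (10.9%) and in 7.48% of all. The TCF sites were at Col6a2, Col9a1, Col9a2, Col13a1, Col15a1, Itga1 and Itga10. Of these only Col9a2 was called in a comparison, with the block. No match says only that these letters are not in the window. The member windows had a median GC content of 58.6%, against 52.4% over all windows.

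Of the fibrillar collagens, the chains of type I, the main fibril of connective tissue, differed most between the mutants. Col1a1 (GRCm38 chromosome 11, 94936224 to 94953042, plus strand) was at 14.34, 18.46 and 7.29 TPM in WT replicates 1, 2 and 3, at 23.75, 35.48 and 16.07 TPM in CdxKO and at 8.43, 7.09 and 4.05 TPM in T/BraKO. Every CdxKO library was above every T/BraKO library, while WT overlapped with both. Col1a1 was 3.76-fold higher in CdxKO than in T/BraKO (log2 difference 1.91, SE 0.37, adjusted p 2.3e-05). Against WT it was called only with the block, as higher in CdxKO by 0.94 (SE 0.12) and lower in T/BraKO (-0.96, SE 0.12) on the log2 scale. Within each replicate number the order was CdxKO, WT, T/BraKO.

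Col1a2 (chromosome 6, 4504814 to 4541544, plus strand), the partner chain of Col1a1, was at 15.53, 14.16 and 6.19 TPM in WT, 16.28, 21.66 and 9.23 TPM in CdxKO and 8.53, 6.26 and 4.38 TPM in T/BraKO. It too was highest in CdxKO and lowest in T/BraKO within each replicate number, and the mutants did not overlap. The log2 fold change between the mutants was 1.26 (SE 0.38, adjusted p 0.0267), and with the block it was 0.43 (SE 0.14) above WT in CdxKO and -0.81 (SE 0.14) against WT in T/BraKO. The blocked call in CdxKO against WT was not made by edgeR with the block and was kept in 3 of the 9 blocked fits that left out 1 library, that in T/BraKO in 9 of 9. The ratio of Col1a1 to Col1a2 TPM was 1.46 to 1.74 in the CdxKO libraries, 0.923 to 1.304 in WT and 0.925 to 1.13 in T/BraKO, so CdxKO did not overlap with the others. Col1a2 did not keep its call without CdxKO replicate 1 (adjusted p 0.154), CdxKO replicate 2 (0.252), T/BraKO replicate 2 (0.267) or T/BraKO replicate 3 (0.191), whereas Col1a1 kept it without any single library.

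Col5a1, a chain of the type V collagen that nucleates fibrils, was at 25.62, 20.47 and 16.13 TPM in WT, 32.41, 29.51 and 20.29 TPM in CdxKO and 20.96, 22.25 and 15 TPM in T/BraKO. It was called only with the block, as higher in CdxKO than in WT (0.40, SE 0.08) and than in T/BraKO (0.46, SE 0.08, log2 scale). The other 8 fibrillar chains were called in no comparison by either fit. Among them, Col2a1, the cartilage and notochord collagen, stayed between 4.64 and 7.26 TPM and Col11a1 between 6.63 and 10.80 TPM.

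Of the remaining collagens, Col8a1 and Col12a1 were also called between the mutants, at much lower levels. Col8a1 (chromosome 16, 57624258 to 57754737, minus strand), a short-chain collagen of endothelial and other sheets, was at 1.05, 1.69 and 0.35 TPM in WT, 1.69, 3.12 and 1.24 TPM in CdxKO and 0.53, 0.65 and 0.19 TPM in T/BraKO. The mutants did not overlap and differed 4.31-fold (log2 fold change 2.11, SE 0.59, adjusted p 0.0127), and with the block Col8a1 was also higher in CdxKO (1.1, SE 0.28) and lower in T/BraKO (-1.07, SE 0.31) than in WT. The direct call was lost without CdxKO replicate 1 (adjusted p 0.0531), CdxKO replicate 2 (0.203) or T/BraKO replicate 3 (0.0984). Mean normalised counts were 74.1 for WT, 145.8 for CdxKO and 33.9 for T/BraKO.

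Col12a1 (chromosome 9, 79598991 to 79718831, minus strand), which decorates type I fibrils, was at 1.06, 0.93 and 0.43 TPM in WT, 1.05, 1.08 and 0.86 TPM in CdxKO and 0.37, 0.31 and 0.19 TPM in T/BraKO. Every T/BraKO library was below every other library, whereas WT and CdxKO overlapped, with WT replicate 1 just above CdxKO replicate 1. Col12a1 was reduced in T/BraKO relative to WT (log2 fold change -1.43, SE 0.36, adjusted p 0.00983) and 3.38-fold higher in CdxKO than in T/BraKO (1.76, SE 0.36, adjusted p 8.79e-05). The call against WT was lost without WT replicate 1 (adjusted p 0.241), WT replicate 2 (0.128) or T/BraKO replicate 3 (0.132), and the direct call was kept without any single library.

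**Figure D4:**
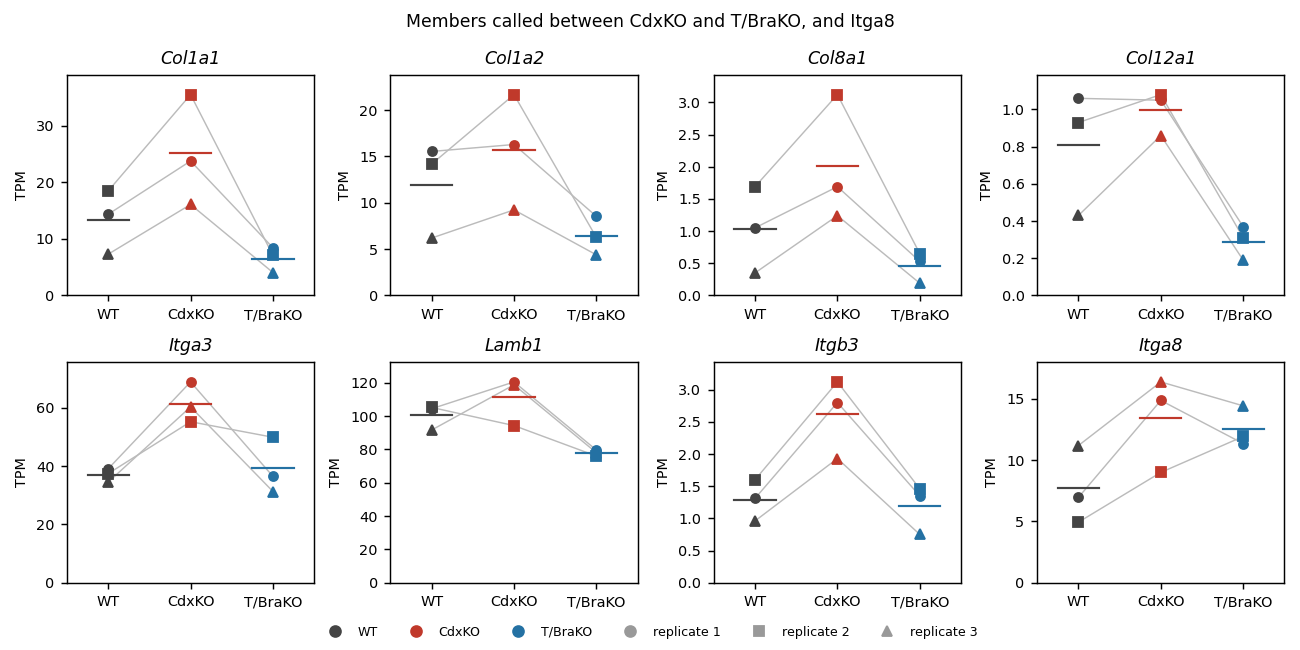
TPM of the 7 members called between CdxKO and T/BraKO and of Itga8, for each library, with grey lines joining libraries of the same replicate number and short bars at the group means (n = 3). For the first 7 genes every CdxKO library lies above every T/BraKO library, and Itga8 is lowest in WT within each replicate number.

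Other cell types that the cultures could hold also make these collagens, and fewer cells of a type and less RNA per cell cannot be told apart in bulk RNA. The 12 fibroblast markers summed to 27.5 to 39.6 TPM in WT, 25 to 32.2 TPM in CdxKO and 29.2 to 40.9 TPM in T/BraKO, and Fap and Ogn were at or under 3 counts in every library. Thy1, which made up most of each T/BraKO sum, went the other way from the collagens, at 8.31 to 14.61 TPM in CdxKO and 21.05 to 31.99 TPM in T/BraKO (log2 difference -1.20, adjusted p 2.0e-05). Postn, a fibroblast and mesenchyme protein that binds type I collagen, moved with the collagens, at 0.33 to 1.2 TPM in WT, 0.65 to 3.44 TPM in CdxKO and 0.10 to 0.13 TPM in T/BraKO. The log2 fold change of Postn was 3.89 between the mutants (adjusted p 1.36e-05) and -2.58 in T/BraKO against WT (adjusted p 0.0491). Pdgfrb was reduced in T/BraKO relative to WT (-0.91, adjusted p 0.0464). Both calls against WT were kept in 3 of the 9 fits that left out 1 library. In all, 0 of 10 tested fibroblast markers were called between CdxKO and WT (0.693% of all genes), and 2 of 12 were lower in T/BraKO than in WT (0.937%). Between the mutants 1 was higher and 1 lower of 10 (2.52% and 0.962% of all genes). The log2 fold change there was positive, so higher in CdxKO, for 8 of these 10 and negative for 2. Over all genes 47.8% were positive. With the block, Thy1 was lower in CdxKO than in WT (1 of 7 tested, with 1.91% of all genes). Postn, Pdgfrb and Pdgfra were lower in T/BraKO than in WT with the block (3 of 6, with 4.85%). The same 3 were higher and Thy1 lower in CdxKO than in T/BraKO (4 of 10, with 7.75% of all genes higher and 6.9% lower). Pdgfra and Pdgfrb, receptors of mesenchymal cells, thus moved with the collagens between the mutants, by 1.00 (SE 0.22) and 0.71 (SE 0.16) on the log2 scale.

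The 7 lateral mesoderm markers summed to 7.83 to 11.6 TPM in WT, 17.9 to 23.6 TPM in CdxKO and 5.13 to 8.38 TPM in T/BraKO. Of these, Hand1 was higher in CdxKO than in WT, Isl1 was reduced in T/BraKO relative to WT, and Hand1, Bmp4 and Isl1 were higher in CdxKO than in T/BraKO, while Gata5 was at or under 3 counts in every library. The calls were 1 of 7, 1 of 7 and 3 of 6 tested, where 0.335%, 0.937% and 2.52% of all genes were called in these directions. The 11 paraxial mesoderm markers summed to 112 to 204 TPM in WT, 73.4 to 218.5 TPM in CdxKO and 53.8 to 79.4 TPM in T/BraKO. Of them, 4 (Msgn1, Tbx6, Dll1 and Rspo3) were lower in T/BraKO than in WT while 1 (Pcdh8) was higher. Of all genes, 0.937% were lower and 0.148% higher there. The same 4 of 11 markers were higher in CdxKO than in T/BraKO and 0 were lower, where 2.52% and 0.962% of all genes were. The 8 endothelium markers summed to 44.8 to 60.3 TPM in WT, 41.4 to 58.4 TPM in CdxKO and 28.4 to 36.5 TPM in T/BraKO, so that every T/BraKO library was below all others, as for Col12a1 and Lamb1. Etv2, an early endothelial and blood factor, made up most of each sum and was higher in CdxKO than in T/BraKO (0.71, adjusted p 0.0455), a call kept in 3 of the 9 fits that left out 1 library. By the main test Etv2 was the 1 marker called of 6 tested between the mutants, where 2.52% of all genes were higher. With the block Etv2 and Kdr were both lower in T/BraKO than in WT (2 of 5 tested, with 4.85% of all genes). Both were also lower than in CdxKO with the block (2 of 6, with 7.75%). Emcn was at or under 3 counts in every library. The part of any of these lists in the collagen and laminin values was not tested.

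Of the basement membrane collagens, none was called by the main test. Col4a1 and Col4a2 encode the common type IV trimer and lie head to head on chromosome 8, with annotated starts 21 bases apart. Col4a1 (11198423 to 11312826, minus strand) was at 60.92, 52.00 and 45.44 TPM in WT, 69.78, 61.85 and 50.85 TPM in CdxKO and 52.57, 51.99 and 44.34 TPM in T/BraKO. All 3 groups overlapped, and in each genotype replicate 3 was lowest. Col4a2 (11312805 to 11449287, plus strand) was at 28.12, 25.36 and 18.02 TPM in WT, 34.35, 31.83 and 25.61 TPM in CdxKO and 22.53, 23.11 and 18.17 TPM in T/BraKO, and here the mutants did not overlap.

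With the block both were higher in CdxKO than in WT (Col4a1 0.21, SE 0.06, and Col4a2 0.38, SE 0.07, log2 scale) and higher than in T/BraKO (0.25, SE 0.06, and 0.49, SE 0.07). The ratio of Col4a1 to Col4a2 TPM was 1.94 to 2.03 in CdxKO, below the 2.05 to 2.52 of WT and the 2.25 to 2.44 of T/BraKO. The X-linked pair Col4a5 and Col4a6, also head to head with starts 1343 bases apart, was lower, at 5.36 to 11.85 TPM and 4.26 to 8.03 TPM. Col4a5 was reduced in T/BraKO relative to WT with the block (-0.31, SE 0.10), and Col4a6 was called in no comparison by either fit. Col4a3 and Col4a4, the chains of the kidney glomerulus, were at most 0.0253% and 0.0138% of the summed collagen TPM.

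Col18a1 (chromosome 10, 77052178 to 77166548, minus strand), the collagen with the highest level, was at 96.25, 76.74 and 81.41 TPM in WT, 88.56, 87.24 and 79.03 TPM in CdxKO and 93.70, 88.09 and 79.81 TPM in T/BraKO. The groups overlapped fully. The 95% interval of its log2 fold change was -0.22 to 0.23 for CdxKO and -0.15 to 0.30 for T/BraKO against WT, and -0.29 to 0.15 between the mutants. Col7a1, which anchors epithelial basement membranes, was called with the block as higher in CdxKO than in WT (0.44, SE 0.12) and than in T/BraKO (0.47, SE 0.12), with all libraries between 2.88 and 6.85 TPM. Col9a2 and Col6a5 were each called once, as higher in CdxKO than in T/BraKO with the block (0.60, SE 0.20, and 0.80, SE 0.27).

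Of the laminins, only Lamb1 was called by the main test, as higher in CdxKO than in T/BraKO. Lamb1 (chromosome 12, 31265234 to 31329644, plus strand) was at 104.45, 105.24 and 91.66 TPM in WT, 120.56, 94.35 and 118.83 TPM in CdxKO and 79.65, 76.06 and 78.06 TPM in T/BraKO. All T/BraKO libraries were below all others, and WT and CdxKO overlapped. Lamb1 was 1.40-fold higher in CdxKO than in T/BraKO (log2 difference 0.48, SE 0.12, adjusted p 0.00308), a call lost without CdxKO replicate 1 (adjusted p 0.0718) or CdxKO replicate 3 (0.0638). Against WT it was lower in T/BraKO with the block only (-0.33, SE 0.08).

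Lamc1 was at 72.10, 73.56 and 61.63 TPM in WT, 69.38, 80.85 and 68.79 TPM in CdxKO and 68.49, 64.83 and 63.42 TPM in T/BraKO. Its 95% intervals of the log2 fold change were -0.10 to 0.27 for CdxKO and -0.23 to 0.15 for T/BraKO against WT. Lama5 was at 60.34, 74.37 and 47.70 TPM in WT, 48.83, 62.58 and 51.31 TPM in CdxKO and 64.99, 71.80 and 57.15 TPM in T/BraKO, with replicate 2 highest in each genotype. With the block it was lower in CdxKO than in T/BraKO (-0.28, SE 0.07), the opposite direction to Lamb1, although the groups overlapped. The ratio of Lamb1 to Lama5 TPM was 1.42 to 1.92 in WT, 1.51 to 2.47 in CdxKO and 1.06 to 1.37 in T/BraKO.

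Among the minor laminin chains, Lamb3, a chain of epithelial laminin, was higher in CdxKO than in T/BraKO with the block only (0.85, SE 0.25). Lamb2 was too (0.24, SE 0.09). Lama1 was not called by either fit, at 3.40 to 8.45 TPM. Endoderm of the early embryo is a rich source of laminin and type IV collagen, and its 12 markers summed to 14.9 to 29.6 TPM in WT, 14.5 to 39.4 TPM in CdxKO and 14.4 to 30.6 TPM in T/BraKO. Ttr was at or under 3 counts in every library, Sox17 was at 0.24 to 0.97 TPM, and Stra6 held most of the sum in the 6 libraries of replicates 1 and 2. Cubn and Foxa1 were higher in CdxKO than in T/BraKO, at no more than 1.23 TPM (2 of 11 tested, where 2.52% of all genes were higher). The part of endoderm cells in these values was not tested.

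Among integrins, Itga3 was the only member called in CdxKO against WT by the main test. Itga3 (chromosome 11, 95044474 to 95076801, minus strand), a laminin receptor chain that pairs with Itgb1, was at 39.09, 37.43 and 34.51 TPM in WT, 68.89, 55.24 and 60.33 TPM in CdxKO and 36.48, 49.91 and 31.30 TPM in T/BraKO. Every CdxKO library was above every other library, and T/BraKO replicate 2 was the nearest to them. Itga3 was 1.67-fold higher in CdxKO than in WT (log2 fold change 0.74, SE 0.17, adjusted p 0.00423) and 1.54-fold higher than in T/BraKO (0.62, SE 0.17, adjusted p 0.0106). Its share of the summed integrin alpha TPM was 26.8% ± 1.7 (SD, n = 3) for CdxKO, 20.9% ± 0.73 for WT and 22.1% ± 3.0 for T/BraKO.

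The call of Itga3 against WT was lost without WT replicate 3 (adjusted p 0.0719) or CdxKO replicate 1 (0.146). The call against T/BraKO was lost without CdxKO replicate 1 (0.161), CdxKO replicate 3 (0.0668), T/BraKO replicate 1 (0.127) or T/BraKO replicate 3 (0.0812). Itga6, the other main laminin receptor chain, was at 78.97, 74.62 and 62.92 TPM in WT, 87.83, 77.31 and 69.46 TPM in CdxKO and 71.32, 63.64 and 57.29 TPM in T/BraKO. It was higher in CdxKO than in T/BraKO with the block (0.26, SE 0.05), and was not called against WT. Its share of the alpha chains was 40.6% ± 0.91 (SD, n = 3) for WT, 34.1% ± 1.5 for CdxKO and 36.5% ± 3.6 for T/BraKO.

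Of the RGD receptor chains, Itga5, Itgav and Itga8 were each called with the block and not by the main test. Itga5 was at 26.46, 24.19 and 17.58 TPM in WT, 33.50, 35.22 and 27.48 TPM in CdxKO and 22.55, 29.78 and 14 TPM in T/BraKO, and was higher in CdxKO than in WT (0.51, SE 0.11) and than in T/BraKO (0.55, SE 0.11, log2 scale). Itgav was higher in CdxKO than in WT (0.32, SE 0.07) and than in T/BraKO (0.31, SE 0.07). Itga8 (chromosome 2, 12106632 to 12301922, minus strand) was at 6.96, 4.94 and 11.19 TPM in WT, 14.87, 9 and 16.38 TPM in CdxKO and 11.35, 11.93 and 14.43 TPM in T/BraKO. It was higher than in WT in both mutants, by 0.84 (SE 0.23) in CdxKO and 0.82 (SE 0.23) in T/BraKO, and T/BraKO did not overlap with WT. The 2 increases share the WT libraries. Itga8 was the 1 member called as higher in T/BraKO.

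Of the beta chains, Itgb3, the partner of Itgav and of the platelet chain Itga2b, was called between the mutants. Itgb3 (chromosome 11, 104608000 to 104670476, plus strand) was at 1.31, 1.60 and 0.96 TPM in WT, 2.80, 3.12 and 1.93 TPM in CdxKO and 1.35, 1.46 and 0.75 TPM in T/BraKO, with every CdxKO library above all others. It was 2.16-fold higher in CdxKO than in T/BraKO (log2 difference 1.11, SE 0.31, adjusted p 0.0120), which was lost without CdxKO replicate 1 (adjusted p 0.131), CdxKO replicate 2 (0.142) or T/BraKO replicate 3 (0.0948). With the block it was higher in CdxKO than in WT (1.02, SE 0.20).

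Itgb1 was at 233.08, 235.10 and 206.91 TPM in WT, 263.74, 261.61 and 246.36 TPM in CdxKO and 185.75, 244.89 and 172.89 TPM in T/BraKO. It was higher in CdxKO than in T/BraKO with the block (0.34, SE 0.07). Itgb8, which with Itgav releases latent TGF-beta, was reduced in T/BraKO relative to WT with the block (-0.79, SE 0.21) and lower than in CdxKO (the difference being 0.78, SE 0.21). Its levels were 4.92, 4.86 and 2.78 TPM in WT, 5.57, 4.24 and 2.68 TPM in CdxKO and 2.20, 3.25 and 1.59 TPM in T/BraKO, so T/BraKO overlapped with both. Itgb4, the hemidesmosome chain, was higher in CdxKO than in WT with the block (0.63, SE 0.21). Itgb5 kept within 26.94 to 32.53 TPM in all 9 libraries, and its 95% intervals were -0.11 to 0.22 for CdxKO and -0.26 to 0.07 for T/BraKO against WT.

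The genes that process collagen or share its matrix were followed by lists. Of 26 genes for collagen processing, 6 were higher in CdxKO than in T/BraKO by the main test and 0 lower, 2 were higher in CdxKO than in WT (Plod2 and P3h2) and 1 was reduced in T/BraKO relative to WT (Plod2). With the block these counts were 13 of 26, 9 of 25 and 5 of 24 tested. Of all genes, 2.52%, 0.335% and 0.937% were called in these directions by the main test. With the block the shares of all genes were 7.75%, 3.4% and 4.85%. Plod2, a lysyl hydroxylase for collagen cross-links, was at 70.17, 75.07 and 71.42 TPM in WT, 86.28, 88.23 and 81.41 TPM in CdxKO and 56.11, 60.58 and 59.75 TPM in T/BraKO. The 3 groups did not overlap, and its log2 fold change was 0.25 (SE 0.07, adjusted p 0.0331) in CdxKO and -0.26 (SE 0.07, adjusted p 0.0127) in T/BraKO, both relative to WT. The call in CdxKO against WT was kept in 0 of the 9 fits that each left out 1 library, and that in T/BraKO in 3 of 9.

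P4ha1, a prolyl hydroxylase needed for a stable triple helix, was higher in CdxKO than in T/BraKO (0.84, SE 0.17, adjusted p 9.07e-05), at 38.59 to 51.69 TPM against 21.24 to 26.12 TPM. Loxl2, an extracellular lysyl oxidase, was too (1.09, SE 0.24, adjusted p 0.000294), as were Plod1 (0.38), P3h2 (0.84) and Serpinh1, the collagen chaperone (0.33). Of the 16 basement membrane partners, Nid1, which links laminin to type IV collagen, and Sparc, which binds collagen, were higher in CdxKO than in T/BraKO (0.99, SE 0.23, adjusted p 0.00116, and 0.62, SE 0.17, adjusted p 0.0138). By the main test 2 of 16 were thus higher between the mutants, where 2.52% of all genes were. With the block Nid1 exceeded WT in CdxKO (0.67) and fell below it in T/BraKO (-0.33). Other members of this list went the other way, since with the block Frem1 and Frem2, which anchor epithelia to the dermis, were lower in CdxKO than in T/BraKO (-0.74, SE 0.19, and -0.31, SE 0.08) and Frem2 was lower than in WT (-0.25, SE 0.08). The blocked counts were 4 higher and 2 lower of 16 between the mutants, where 7.75% and 6.9% of all genes were. In CdxKO against WT, 3 were higher and 1 lower of 16 (3.4% and 1.91% of all genes). In T/BraKO against WT, 1 was lower of 14 tested (4.85% of all genes). The list's median log2 fold change between the mutants was -0.03, with 7 positive and 9 negative. Plod2, P4ha1, P3h2, Loxl2 and Nid1 kept their calls between the mutants in all 9 fits that left out 1 library, Plod1 in 7, Sparc in 5 and Serpinh1 in 2. Hspg2, which encodes perlecan, ranged from 17.54 to 42.03 TPM with all groups overlapping.

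Of 17 fibronectin and other integrin ligands, Spp1 was higher in CdxKO than in WT (0.94, SE 0.23, adjusted p 0.00971), and Tnc (1.73, SE 0.31, adjusted p 3.66e-06) and Thbs2 (0.87, SE 0.26, adjusted p 0.0294) were higher in CdxKO than in T/BraKO. These were 1 and 2 of 17 tested, where 0.335% and 2.52% of all genes were higher. Fn1, the main ligand of Itga5, was at 166.71, 137.51 and 79.42 TPM in WT, 201.09, 176.73 and 129.53 TPM in CdxKO and 115.47, 124.41 and 63.39 TPM in T/BraKO, and was called with the block only, in CdxKO against WT (0.45) and against T/BraKO (0.74). With the block 5 ligands were higher in CdxKO than in WT, 2 were lower in T/BraKO than in WT and 6 were higher in CdxKO than in T/BraKO, each of 16 tested. Of all genes, 3.4%, 4.85% and 7.75% were called in these directions. Of 24 integrin adaptors, 1 was called by the main test, Tns1 as higher in CdxKO than in WT (0.66, SE 0.18, adjusted p 0.0305), where 0.335% of all genes were higher. With the block 7 of 23 were higher in CdxKO than in WT (Vcl, Src, Tns1, Actn1, Actn4, Cd151 and Cd9, with 3.4% of all genes), 2 were higher (Vcl and Tns1) and 2 lower (Tln2 and Parva) of 22 in T/BraKO against WT (4.83% and 4.85%), and 5 of 23 were higher in CdxKO than in T/BraKO (Parva, Src, Tns3, Actn1 and Cd151, with 7.75%). Of 12 matrix proteases and their inhibitors, Timp1 was higher in CdxKO than in WT (0.69, SE 0.19, adjusted p 0.0477) and than in T/BraKO (0.62, SE 0.19, adjusted p 0.0338), and Mmp2, which cleaves type IV collagen, was reduced in T/BraKO relative to WT (-0.54, SE 0.13, adjusted p 0.00466). The main test thus called 1 of 12 in each comparison, where 0.335%, 2.52% and 0.937% of all genes were called in these directions. With the block 3 proteases or inhibitors were higher and 1 lower in CdxKO than in WT, of 12 (3.4% and 1.91% of all genes). In T/BraKO relative to WT 1 of 12 fell (4.85% of all genes), and 5 of 12 were higher in CdxKO than in T/BraKO (7.75%). When each library was left out in turn, Tnc kept its call in 9 of 9 fits, Mmp2 in 8, Spp1 in 5, Thbs2 and Tns1 in 3, and Timp1 in 1 against WT and 3 between the mutants.

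Beside genotype, the replicate number moved many members. Of 68 members tested for it (DESeq2 likelihood-ratio test beside genotype, chosen after seeing the data), 39 (57.4%) were called, where 47.9% of all genes were. The share was 24 of 35 for collagens, 6 of 11 for laminins and 9 of 22 for integrins. Col13a1, a transmembrane collagen, was at 0.71, 0.82 and 0.41 TPM in the replicate 2 libraries of WT, CdxKO and T/BraKO and at 2.88 to 7.34 TPM in the other 6 libraries. Lamb3 went the other way, at 3.00, 4.07 and 2.92 TPM in replicate 2 and 0.63 to 1.89 TPM elsewhere. All 4 type IV chains tested (Col4a1, Col4a2, Col4a5 and Col4a6) were called, and each was lowest in replicate 3 of every genotype. What distinguishes the replicate series is not given in the sources used here.

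**Figure D5:**
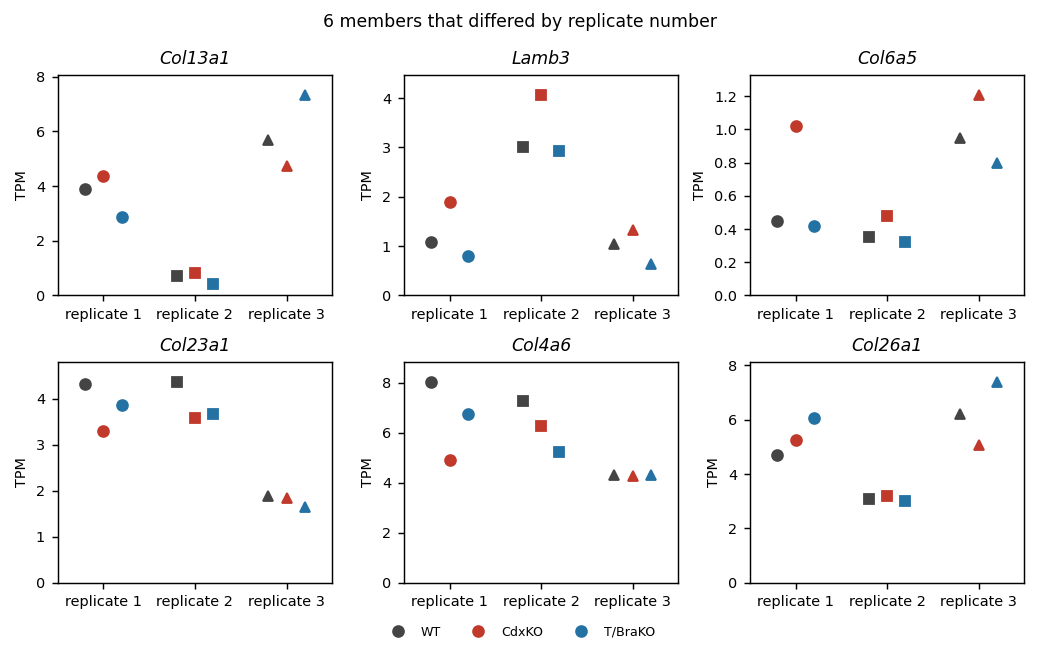
TPM of 6 members called for the replicate number, by replicate number, with colours for the genotype and 1 point per library. Col13a1 is lowest and Lamb3 highest in the replicate 2 libraries of all 3 genotypes. The 6 genes were chosen after their values were seen.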

How the data were processed

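Poly(A) RNA of 9 cultures was sequenced as single-end reads. Per the labels and the study's methods, the authors trimmed reads with cutadapt 1.16, aligned them with STAR 2.5.2a to mm10 with RefSeq genes and quantified genes strand-specifically with RSEM 1.3.0. The deposited table holds expected counts, which are estimates, and TPM for each library. Reads shared by related chains are divided by that estimate.

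Expected counts were rounded and tested over all genes with DESeq2 1.42.0 (Wald test, default size factors, unshrunken fold changes, all 9 libraries, genotype as the term, Benjamini-Hochberg adjusted p of at most 0.05, in R 4.3.3). An adjusted p that DESeq2 gave as NA was left out. Alternatives were TMM scaling, keeping only genes that reach 10 counts in 3 libraries, edgeR 4.0.16, the replicate block, 6 libraries, stricter thresholds and leaving out each library. Scripts were tested on simulated data. TPM from the deposited table was used for levels and sums. A 95% interval is the log2 fold change ± 1.96 SE and covers the spread between these libraries only.

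The labels call the replicates biological and number them alike in each genotype. Deviations from the group mean correlated between same-numbered libraries in 9 of 9 pairs (r 0.532 to 0.814, over 12316 genes with a mean count of at least 50), so the numbers were taken to pair the libraries, and blocked values are given where they change a call. No 2 libraries of the same genotype agreed within counting noise. Coordinates are from GENCODE M21 (GRCm38, which is mm10) for 81 of 81 members.

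Named genes were members reaching a mean of 10 TPM or among the 3 highest of their family, members called in any comparison, and members of the stated lists. The members and lists were chosen with earlier results of these data known. The test of the replicate number and the leave-one-out fits with the block were chosen after seeing the data. Values of 1 member called with the block are not reported here, though the counts include it.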

Additional observations from a re-analysis of the deposited data

Results flagged for a closer look

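In 7 members the 2 mutants differed, by the test between CdxKO and T/BraKO, which is the difference of their fold changes against the same WT libraries. A difference between the lines cannot be told apart from an effect of the mutations. In this comparison edgeR without the block called 1 member. Of the 7 calls, only those of Col1a1 and Col12a1 were kept when any single library was left out. The log2 difference was 2.11 for Col8a1, 1.91 for Col1a1, 1.76 for Col12a1, 1.26 for Col1a2, 1.11 for Itgb3, 0.62 for Itga3 and 0.48 for Lamb1, each higher in CdxKO in 3 of 3 libraries than in any T/BraKO library. With 3 libraries a group, no test for an outlying library was made.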

How the results depend on the processing

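With genotype as the only term, few members were called against WT, and those counts depended on the fit. Members higher in CdxKO than in WT numbered 1, but 0 with edgeR, 14 with the replicate block, 13 with edgeR and the replicate block, 2 with only the 6 libraries compared and 0 at an absolute log2 fold change above 1. Members lower in T/BraKO than in WT numbered 1, but 0 with edgeR, 7 with the block, 9 with edgeR and the block and 2 with 6 libraries, and members higher there numbered 0, but 1 with the block by either tool. Between the mutants 7 were higher in CdxKO, but 1 with edgeR, 21 with the block, 26 with edgeR and the block and 3 at an adjusted p of 0.01, and 0 were lower, but 1 with the block by either tool. The causes were not tested.

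When 1 library was left out, members higher in CdxKO than in WT ranged from 0 to 2, members lower from 0 to 0, members higher in T/BraKO than in WT from 0 to 1, members lower from 0 to 2, and members higher in CdxKO than in T/BraKO from 2 to 8, with 0 to 0 lower. The last count fell to 2 without CdxKO replicate 1, to 4 without CdxKO replicate 2 and to 3 without T/BraKO replicate 3. With the block the ranges were 6 to 14 and 0 to 1 for CdxKO against WT, 0 to 1 and 3 to 7 for T/BraKO against WT, and 12 to 20 and 0 to 1 between the mutants. The blocked count between the mutants was 13 without CdxKO replicate 1 and 12 without T/BraKO replicate 1. That for CdxKO against WT was 7, 6 and 7 without WT replicates 1, 2 and 3, 9 without CdxKO replicate 1 and 6 without CdxKO replicate 3, and members lower in T/BraKO numbered 4 without WT replicate 1 and 3 without WT replicate 2. Over 44 called values of 25 members, 0 changed sign under the other alternatives. The blocked fits that left out 1 library were not searched for sign changes. The values were picked because they were called, which makes a change of sign unlikely.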
